A study of Mus musculus with 36 samples.

Results

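Ribosomal protein genes encode the proteins of the cytosolic ribosome. They were selected by symbol from the RefSeq annotation of mm10 (GRCm38.p6): Rpl or Rps and a number, with an optional letter or final l, and Rplp0, Rplp1, Rplp2 and Rpsa, on chromosomes 1 to 19 and X. Kinases (Rps6k) and pseudogenes were left out. The rule found 82 of 21631 protein-coding genes, 51 of the large subunit (Rpl) and 31 of the small subunit (Rps). Fau, which encodes a ribosomal protein under another symbol, and the copies Rps3a1, Rpl7l1, Rpl22l1, Rps27rt and Rpl37rt fall outside the rule. The rule uses symbols and chromosomes only, but it was chosen with earlier results of these data known.

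The study profiled chromatin of mouse embryonic stem cells by ChIP-seq on days 0, 2, 4 and 6 with antibodies to CTCF and to MBD3, beside input chromatin. The 36 samples form 12 groups of 3, 1 for each of CTCF, MBD3 and input on each day. The labels give the cells as mESC and the day, and describe culture with LIF and KnockOut Serum Replacement on irradiated mouse embryonic fibroblasts. They do not say what was done between day 0 and day 6, and the genotype appears only in the names of the peak lists, as WT. The authors pooled replicates 1 to 3 before calling peaks, so each antibody and day has 1 list, no spread between replicates can be given, and days are set side by side without a test. Feeder cells cannot be told apart from stem cells in such lists, and a peak list cannot be checked for expression of stem cell markers.

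A ribosome is built from ribosomal RNA and a set of proteins of which nearly every cell needs matching amounts. The genes are short, are among the most strongly transcribed by RNA polymerase II, carry small nucleolar RNAs in many introns, and typically start transcription in a run of pyrimidines (the TOP tract). CTCF is a zinc-finger protein that binds a long GC-rich motif and marks loop anchors and boundaries, and MBD3 is a subunit of the NuRD complex, which joins nucleosome remodelling with histone deacetylation. Ribosomal protein messages have also left many reverse-transcribed copies, the processed pseudogenes, across the mouse genome.

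An annotated start with the flanking sequence was matched by gene identifier for 62 of the 82 members. The 6 promoters shown, from the RefSeq promoter table for GRCm38.p6, are those with the most significant MBD3 peak over the start (Rplp0, Rpl26, Rpl10a) and then the most significant CTCF peak there (Rpl5, Rpl38, Rpl36a). Each runs 5′ to 3′ on the plus strand from 150 bp before the start to 20 bases into the transcript. Capitals mark a match to the CTCF core motif (a degenerate core of the long CTCF motif, given by name), to GGGGGCG (the G-rich part of that motif, searched only after the sequences had been seen) or to a run of 6 or more C or T bases within 10 bases of the start, with motifs searched on both strands. In Rpl10a the reverse complement of GGGGGCG overlaps the run of C bases.
Rplp0, chr5:115559317-115559486: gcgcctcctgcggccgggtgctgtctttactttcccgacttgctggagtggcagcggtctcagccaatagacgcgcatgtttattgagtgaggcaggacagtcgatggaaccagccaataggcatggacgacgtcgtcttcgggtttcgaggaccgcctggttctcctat
Rpl26, chr11:68901416-68901585: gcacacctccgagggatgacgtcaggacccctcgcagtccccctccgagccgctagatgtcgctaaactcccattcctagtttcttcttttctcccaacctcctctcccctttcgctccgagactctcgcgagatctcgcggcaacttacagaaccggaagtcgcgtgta
Rpl10a, chr17:28328321-28328490: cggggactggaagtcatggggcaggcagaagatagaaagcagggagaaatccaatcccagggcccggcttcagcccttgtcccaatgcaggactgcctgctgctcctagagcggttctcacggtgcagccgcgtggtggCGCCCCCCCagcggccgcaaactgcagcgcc
Rpl5, chr5:107900378-107900547: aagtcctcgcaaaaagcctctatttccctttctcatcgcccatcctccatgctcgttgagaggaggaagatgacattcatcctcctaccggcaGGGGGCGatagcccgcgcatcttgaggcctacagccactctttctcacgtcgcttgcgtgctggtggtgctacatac
Rpl38, chr11:114668430-114668599: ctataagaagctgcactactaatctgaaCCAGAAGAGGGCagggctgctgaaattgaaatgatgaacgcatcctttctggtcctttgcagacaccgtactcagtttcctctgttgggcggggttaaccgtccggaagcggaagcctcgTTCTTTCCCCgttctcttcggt
Rpl36a, chrX:134585504-134585673: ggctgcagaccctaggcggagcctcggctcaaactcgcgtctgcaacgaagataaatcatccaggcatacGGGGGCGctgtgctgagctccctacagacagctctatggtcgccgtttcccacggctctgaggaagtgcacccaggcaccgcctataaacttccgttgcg

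The marked CTCF letters lay close to the authors' CTCF summits of day 0. The distance from the middle of the match to the summit was 4 bp in Rpl10a, 13 bp in Rpl5, 21 bp in Rpl38 and 2 bp in Rpl36a. In all of these but Rpl38 the letters were GGGGGCG, searched after the sequences had been seen. The promoters were also picked for peaks at the start, so these distances are no test of the motif. No capitals appear in Rplp0 and Rpl26, which says only that these letters are not in the stretch printed; the full window of Rplp0 holds a CTCF core motif before that stretch. Over the full windows of 250 bp before to 50 bp after the start, the CTCF core motif was in 3 of the 62 members (4.84%, against 2.78% of 17274 protein-coding genes with a window). GGGGGCG was in 24.2% of members and 24.1% of all. The ETS family core CCGGAAG was in 25 of 62 members (40.3%, against 13.1%), and a pyrimidine run at the start was in 38 of 62 (61.3%, against 33.6%). The YY1 core AAGATGG was in 14.5% against 7.24%, the GC box GGGCGG in 59.7% against 49.8%, and TATAAA in 11.3% against 14.9%. The median window of members held 21 CpG dinucleotides against 13 in all genes, at a GC content of 57.8% against 56.7%. A CTCF summit of any day fell in the window of 14 of the 62 members (22.6%, against 13% of all genes with a window), and an MBD3 summit in that of 9 (14.5%, against 5.5%).

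Within 1 kb, a smaller share of ribosomal protein genes carried CTCF peaks than of protein-coding genes at large, an order that turned with the reach around the gene, while MBD3 was found at a similar or larger share. A gene was counted where a peak lay inside it or within 1 kb. For CTCF these were 42 of 82 members on day 0 (background, the share of all protein-coding genes, 57.4%), 25 on day 2 (39.9%), 34 on day 4 (46.7%) and 35 on day 6 (47.8%). As shares of the members that is 51.2%, 30.5%, 41.5% and 42.7%, below the background on every day. With 5 kb of reach they were 73.2%, 48.8%, 64.6% and 63.4%, against 66.3%, 49.4%, 56.7% and 58% of all genes, so above the background on days 0, 4 and 6. Within 1 kb of an annotated start they were 35.5%, 17.7%, 24.2% and 25.8% of 62 members, above 30.8%, 11.8%, 15.8% and 16.3% of genes with a start. For MBD3 the members numbered 21 on day 0 (25.6%, background 22%), 13 on day 2 (15.9%, background 4.98%), 24 on day 4 (29.3%, background 20.4%) and 28 on day 6 (34.1%, background 21.2%). The day 0 share of MBD3 was near the background. It was below the background for peaks inside the gene only (15.9%, against 19.4%) and without peaks of high expected background (15.9%, against 19.7%).

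The members are short genes, so the counts were also set beside those of short genes. The median member spanned 3169.5 bp, from 592 bp (Rpl32l) to 11774 bp (Rps15a), against 17329 bp for all protein-coding genes. Among the 69 members under 5 kb, 34, 19, 26 and 27 had a CTCF peak on days 0, 2, 4 and 6, against 24.5%, 12.1%, 15.7% and 16.5% of the 4850 protein-coding genes of that size. In the same size class 18, 10, 19 and 23 members had an MBD3 peak, against 8.45%, 2.97%, 8.49% and 7.22%. So the CTCF share of members lay below that of all genes, and above that of short genes. Strong CTCF peaks, of fold 10 or more over the expected background, were at 17, 1, 17 and 19 members, against 23.9%, 3.38%, 24% and 26.7% of all genes.

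The lists differ in length, and the fold at the summit of each peak is the authors' own value. On the chromosomes used, CTCF lists held 47377, 28120, 36764 and 38083 peaks on days 0, 2, 4 and 6, and MBD3 lists 10441, 1984, 8992 and 10864. The background expected over a whole list, recovered from the authors' fold and p-values, was 1.83 to 2.87 fragments for CTCF and 1.41 to 2.18 for MBD3. When every MBD3 list was limited to the number of peaks of the shortest, 5, 13, 12 and 13 members had a peak on days 0, 2, 4 and 6, against 5.4%, 4.98%, 5.52% and 4.72% of all genes.

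**Figure D1:**
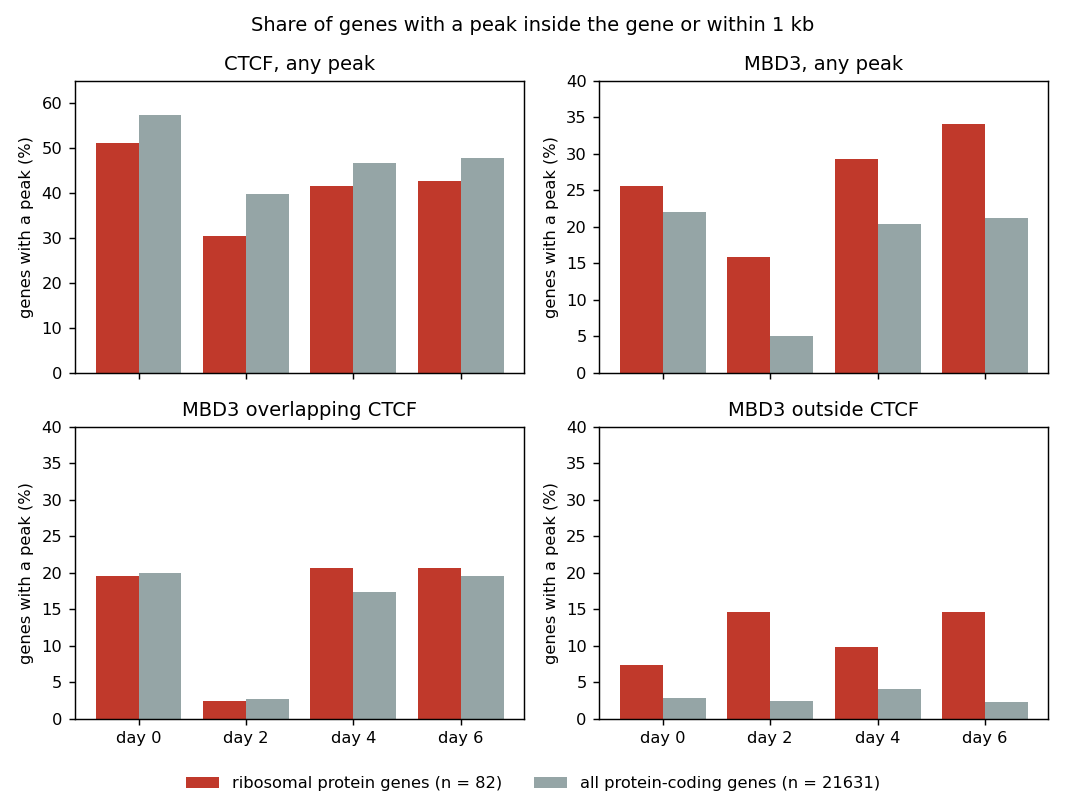
Percent of genes with a peak inside the gene or within 1 kb on each day, for the 82 ribosomal protein genes (red) and all 21631 protein-coding genes (grey), with 1 pooled list behind each bar and so no error. With this 1 kb reach the red CTCF bars (30.5% to 51.2%) are lower than the grey; for MBD3 outside CTCF peaks the red bars (7.32% to 14.6%) stand above grey bars of 2.26% to 4.04%.

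MBD3 at ribosomal protein genes fell into peaks that overlapped a CTCF peak of the same day and peaks that did not, the former at a share of members near the background and the latter at a larger share than the background on each day, with no test made. With overlap set at 1 bp or more, MBD3 overlapped CTCF at 16 members on day 0 (background 20%), 2 on day 2 (2.67%), 17 on day 4 (17.3%) and 17 on day 6 (19.6%). In percent of members these are 19.5, 2.44, 20.7 and 20.7, each near the share of all genes. MBD3 outside CTCF peaks was at 6 members on day 0 (7.32%, background 2.83%), 12 on day 2 (14.6%, background 2.44%), 8 on day 4 (9.76%, background 4.04%) and 12 on day 6 (14.6%, background 2.26%). Of these peaks at members, 4 of 6, 2 of 13, 0 of 9 and 1 of 13 on days 0, 2, 4 and 6 lay over a high expected background (more than 10 times the list's level). Of the MBD3 peaks at members that overlapped CTCF, 6 of 18, 0 of 2, 6 of 19 and 9 of 20 did so. MBD3 outside CTCF was on any day at 19 members (background 7.67%), on a day after day 0 at 17 (background 5.93%), and on each of the later days at 7 (background 0.966%). Among the 69 members under 5 kb the counts were 6, 10, 6 and 10, against 1.03%, 2.02%, 1.98% and 1.32% of short genes. MBD3 peaks of fold 10 or more were rare, at 1, 2, 2 and 4 members, against 0.837%, 0.398%, 0.828% and 1.2% of all genes.

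When peaks of the same antibody that overlapped between days were joined into sites, the members had 44 MBD3 sites at 38 genes. Of these, 25 sites at 22 genes overlapped CTCF on every day they were found, 17 sites at 17 genes never did, and 2 sites (Rpl8, Rps20) did on some days. Summits of the overlapping sites lay in the flank of the gene at 19 of 25 sites, and of the 18 with an annotated start, 9 lay within 500 bp upstream of it and 7 more than 500 bp downstream. Summits of the sites outside CTCF lay inside the gene at 16 of 17 (the exception is Rps25, whose summit lies in the neighbouring Trappc4), and of the 15 with a start none lay upstream within 500 bp and 12 lay more than 500 bp downstream. No MBD3 summit fell on an annotated small nucleolar RNA. Exon and intron positions were not analysed here, since the annotation used holds gene spans only.

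**Figure D2:**
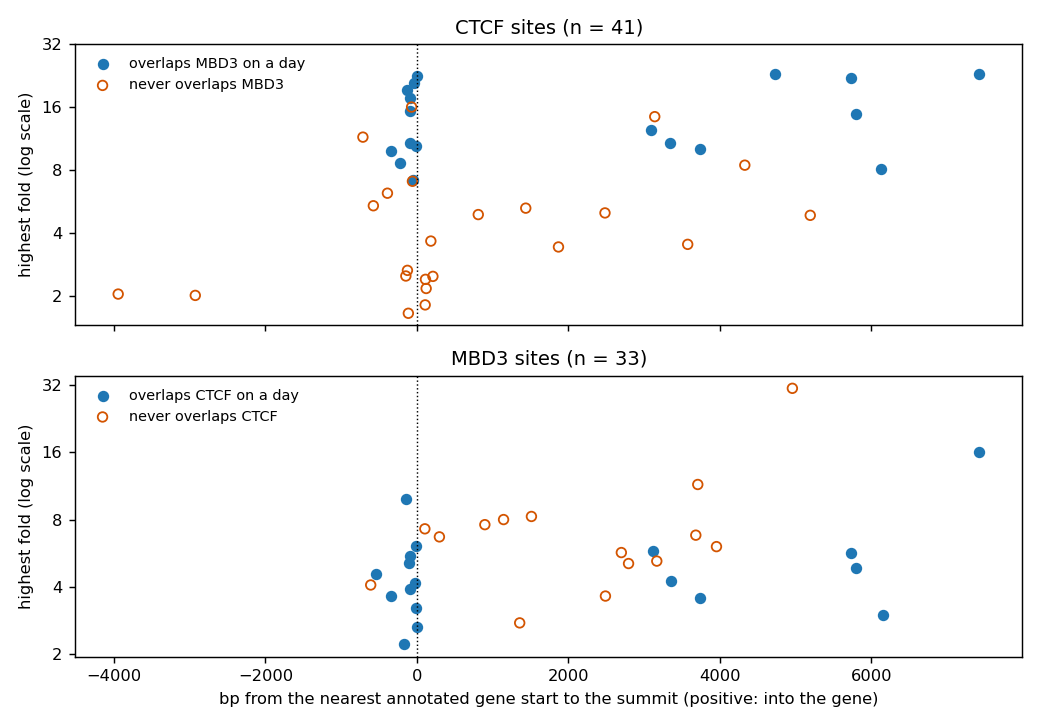
Highest fold over the days (log scale) against the distance in bp from the nearest annotated gene start to the summit, for 41 CTCF sites and 33 MBD3 sites at members with a start; filled points overlapped the other antibody on a day and open points never did. Filled MBD3 points lie just upstream of the start or far downstream, while all open MBD3 points but Rps25 lie at positive distances.

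The strongest MBD3 site at a member was in Rpl4, whose protein lines the exit tunnel of the large subunit. Rpl4 spans chr9:64173387-64178562, and the site lay at chr9:64178219-64178474, 219 bp inside the end of the gene and 4956 bp downstream of its start. It was not called on day 0, and its fold was 29.8 on day 2, 15.6 on day 4 and 31.0 on day 6, with 159, 131 and 160 fragments at the summit. The summit expected background there was 4.37 to 7.45 fragments. The site ranked 35 among all MBD3 peaks of day 2 by fold, 107 on day 4 and 38 on day 6. No CTCF peak overlapped it on any day, and a second, weaker MBD3 site in the flank of Rpl4, inside Snapc5, overlapped CTCF with a fold of 3.0 on day 0 and 2.58 on day 4.

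Rpl8, which encodes a protein beside the peptidyl transferase centre, had 2 MBD3 sites inside the gene (chr15:76904071-76906318), both on all 4 days. The stronger had folds of 2.7, 9.43, 8.53 and 15.0 in order of day, while its expected background was 31.5 fragments on day 0 and 5.31 on day 6. On day 0 only, a CTCF peak of fold 1.63 overlapped it. The weaker had folds of 1.94, 4.78, 3.34 and 4.9 over the days. In both sites day 0 was the lowest day, but its summit lay elsewhere in the site. In the stronger it was at chr15:76905962 on day 0 and at 76906191 to 76906194 later. In the weaker it was at chr15:76904623 and then at 76904885 to 76904904.

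Members of the small subunit included Rps3, a protein of the messenger RNA entry channel. Its site lay 3707 bp downstream of the start, was absent from the day 0 list, and had folds of 6.47, 6.87 and 11.5 on days 2, 4 and 6. Rps2, another protein near that channel, had folds of 6.7, 6.61 and 5.06 on the same days at a site 296 bp from an annotated start. Rpsa, also known as the laminin receptor, was found on all 4 days with folds of 1.91, 6.82, 5.09 and 6.15, and with an expected background of 41.9 fragments on day 0 and 4.36 to 7.8 later. These 3 genes had no CTCF peak in any list.

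Rpl41, which encodes a very short peptide of the large subunit, followed the same days as Rps3 and Rps2, with folds of 7.6, 5.69 and 6.04 and no peak in the day 0 list. Counted over all MBD3 peaks of a gene, these 3 members were missing on day 0 and found on each later day (background 0.453%). For CTCF no member did so (0 of 82, background 0.143%). A first MBD3 peak on any later day was at 17 members (background 10.7%), MBD3 on all 4 days at 6 (background 2.91%), and MBD3 on day 0 only at 4 (background 4.81%). Rpl36al, the copy of Rpl36a outside the X chromosome, had folds of 3.5, 8.01, 4.89 and 4.79 over the 4 days. Rpl32l, a short copy of Rpl32 that lies within the span of Map7, had folds of 4.07 on day 2 and 7.28 on day 6.

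Further sites outside CTCF were found on 1 or 2 days. On day 0 alone these were Rpl21 (fold 3.37) and Rps25 (4.08), and on day 2 alone Rps23 (8.27), a protein of the decoding centre, and Rpl14 (5.09). Rps15 had a fold of 2.76 on day 4 alone. On day 6 alone they were the 3′ part of Rplp0 (6.06), Rps9 (5.7) and Rps6 (3.64), the classical substrate of the S6 kinases. Rps18 was found on day 0 (2.81) and day 6 (5.22). The site at Rps20 had folds of 2.12, 1.99 and 2.77 on days 0, 2 and 4, overlapping CTCF on 2 of them. Its summits lay at chr4:3835321, 3835314 and 3835732.

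The median fold of these sites was lowest on day 0, over sets of sites that differ between days. For the 19 sites outside CTCF on a day, the median fold was 2.75 on day 0 (8 sites, 1.91 to 4.08), 6.76 on day 2 (12 sites), 5.39 on day 4 (10 sites) and 6.04 on day 6 (13 sites). The median expected background at them moved the other way, from 28.4 fragments on day 0 to 11, 9.81 and 5.31, and the median number of fragments at the summit was 72.5, 76.5, 56 and 41. The part of the background in the folds was not tested. Single sites went the other way, such as Rps20, which was lower on day 2 than on day 0. These medians of sites take in days on which a site of Rpl8 or Rps20 did overlap CTCF. With only peaks outside CTCF on the day, the median fold at members was 3.09, 6.7, 5.69 and 6.04. For such peaks at all protein-coding genes it was 3.11, 4.33, 3.12 and 4.71, so the day 0 values were close.

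**Figure D3:**
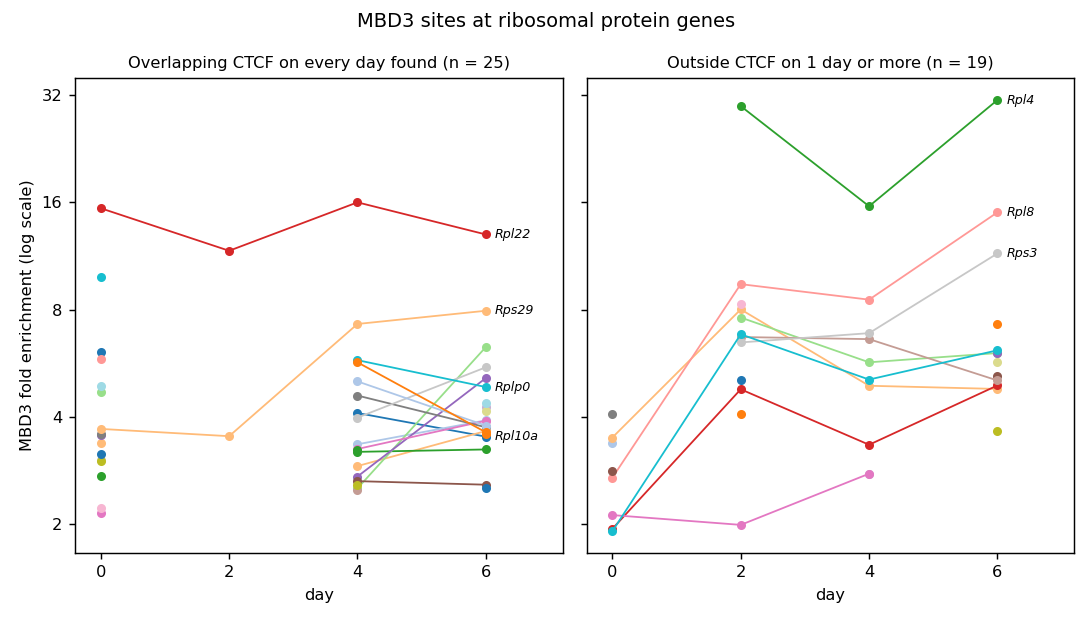
MBD3 fold (log scale) by day for each of the 44 sites at ribosomal protein genes, on the left the 25 that overlapped CTCF on every day found and on the right the 19 that did not on 1 day or more; lines join neighbouring days with a peak. On the left only Rpl22 and Rps29 have a point on day 2; on the right Rpl4 reaches 29.8 and 31.0.

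MBD3 sites that overlapped CTCF had another pattern over the days. Their numbers were 16, 2, 18 and 20 in the 4 lists in order of day, and 9 were found on days 0, 4 and 6 but not on day 2. The share of all genes with such a peak was also lowest on day 2. Rpl22, whose protein is needed in T-cell development, had the highest such site: its fold was 15.4, 11.7, 16.0 and 13.0 over the days, 7425 bp downstream of the start in chr4:152324436-152334082. The CTCF peak over it had folds of 23.0, 18.5, 21.5 and 20.1. Rps29 was the other gene kept on day 2, with MBD3 folds of 3.7, 3.53, 7.29 and 7.94 and CTCF folds of 6.84, 6.87, 10.3 and 16.3 in the flank of the gene. Its MBD3 summit lay at chr12:69159390 on day 0, over a high expected background, and at 69159752 to 69159774 later. A further MBD3 peak of Rps29 on day 2 lay outside CTCF.

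Several of these sites sat at the start of the gene. Rplp0, the scaffold of the P-stalk that recruits translation factors, had MBD3 folds of 9.87, 5.77 and 4.85 on days 0, 4 and 6 at 145 bp upstream of the start, over CTCF folds of 19.4, 6.05, 13.8 and 13.8 on days 0, 2, 4 and 6. Rplp1 and Rplp2, the other stalk proteins, had no peak in any list. Rpl10a, a protein of the mobile stalk that guides the leaving transfer RNA, had MBD3 folds of 6.1, 4.1 and 3.52 on the same days at 12 bp upstream, over CTCF folds of 22.5, 9.93, 14.3 and 16.0. In both genes CTCF was strongest on day 0 and weakest on day 2, and MBD3 was highest on day 0. The MBD3 peaks of Rpl10a on days 4 and 6 and of Rplp0 on day 6 lay over a high expected background.

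Rpl26 and Rpl38 differed from these in having the highest MBD3 fold on day 6. Rpl26, which also binds messenger RNA of the tumour suppressor Trp53, had folds of 3.56, 2.72 and 5.14 on days 0, 4 and 6 at 102 bp upstream, over CTCF folds of 11.0, 6.72, 15.3 and 14.9. Each of these MBD3 peaks of Rpl26 lay over a high expected background, of 17.5, 24.7 and 24.1 fragments. Rpl38, known for its part in translating Hox messages, had folds of 3.03, 3.98 and 5.51 at 92 bp upstream, over CTCF folds of 12.9, 6.09, 14.3 and 17.7, and a second site at 537 bp upstream with folds of 3.58, 4.59 and 3.74. These are the promoters in which the printed sequences place a CTCF core (Rpl38) or none of the CTCF letters (Rpl26). Both hold the ETS letters ccggaag, printed in lower case.

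Rpl5 and Rpl11, whose proteins travel together with a ribosomal RNA and bind Mdm2, both had CTCF at the start on all 4 days and MBD3 only late. Rpl5 had CTCF folds of 20.9, 7.02, 12.5 and 15.1, with an MBD3 fold of 4.15 on day 6 alone. Rpl11 had CTCF folds of 7.29, 4.7, 8.23 and 10.8, with MBD3 folds of 3.35 on day 4 and 3.91 on day 6. The day 6 MBD3 peaks of Rpl5 and Rpl11 lay over a high expected background. Among genes named in Diamond-Blackfan anaemia, Rps19 had CTCF folds of 10.2, 7.0, 21.9 and 15.9 in its 3′ flank and MBD3 folds of 5.69 and 3.62 on days 4 and 6. Rps10 had CTCF folds of 12.3, 6.12, 12.0 and 14.8 and MBD3 folds of 4.87 and 4.37 on days 0 and 6. Whether a weak peak would be called again in another sample of the same day was not tested, for want of replicates.

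The remaining overlapping sites were mostly weak. Rpl13a had folds of 3.37, 2.91 and 3.65 and Rpl36 had folds of 2.15, 3.25 and 3.9 on days 0, 4 and 6. Rpl27 had folds of 2.64 and 2.58 on days 4 and 6. Rps14 had folds of 3.15 and 2.52 on days 0 and 6. Rpl24 (5.8) and Rpl37 (2.22) were found on day 0 alone, Rpl3 (2.5) and Rps4x (3.23) on day 4 alone, and Rpl13 (3.58) and the 3′ flank of Rpl26 (4.26) on day 6 alone. Rpl3 is a protein of the peptidyl transferase centre, and Rps4x is encoded on the X chromosome. A high expected background lay under the MBD3 peaks of Rpl36, Rpl27 and Rpl37 on each day given, and of Rpl13a on days 4 and 6.

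**Figure D4:**
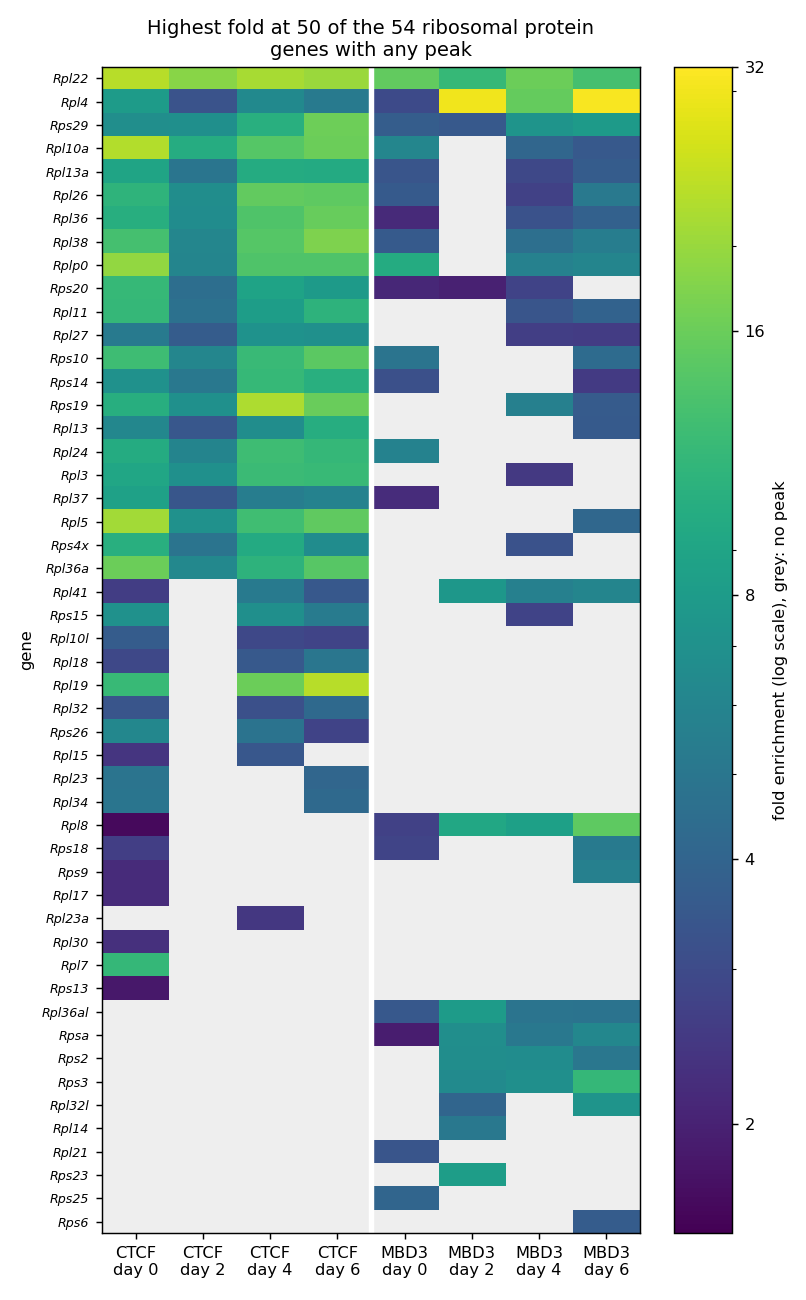
Highest fold over the expected background in each of the 8 lists (colour, log scale) for 50 of the 54 ribosomal protein genes with a peak in any list, grey where no peak was called, sorted by the number of days with CTCF and then with MBD3. The 22 genes at the top have CTCF on all 4 days, and the 10 at the bottom have MBD3 and no CTCF.

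CTCF was found on all 4 days at 25 members (background 38.4%), on any day at 44 (background 59.7%) and on day 0 only at 7 (background 9.29%). The 63 CTCF sites included 30 found on all 4 days, with median folds of 10, 5.54, 10.3 and 11.7 over days 0, 2, 4 and 6, and 29 of the 30 had their lowest fold on day 2. The exception was Rps29. The median fold of CTCF peaks at all protein-coding genes was also lowest on day 2 (6.21, 5.3, 8.14 and 8.49). A high expected background lay under 10 of 60, 12 of 31, 8 of 43 and 14 of 47 CTCF peaks at members on days 0, 2, 4 and 6. Of the 19 lasting sites with an annotated start, 11 lay within 500 bp of it, all of them upstream, and the other 8 lay more than 500 bp downstream.

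Lasting CTCF sites mostly overlapped MBD3 on some day. This held for 25 of 30, and on days 0, 2, 4 and 6 for 16, 2, 18 and 19 of them. The 5 that never did included those at Rpl36a (CTCF folds 16.0, 6.26, 10.9 and 14.4), the middle of Rpl22 (10.9, 4.18, 7.23 and 14.4) and the body of Rpl3 (3.25, 3.1, 4.78 and 6.47). Rpl36a had the strongest of these on days 0, 2 and 4, at 71 bp before its start, the promoter printed above, with no MBD3 peak on any day. At the start, in the body or in the near flank of the gene, further lasting sites that overlapped MBD3 had CTCF folds over the days of 8.95, 4.91, 9.87 and 9.74 (Rpl13a), 10.2, 6.63, 13.8 and 15.8 (Rpl36), 9.87, 5.97, 12.4 and 11.5 (Rpl24), 11.6, 4.54, 8.81 and 7.99 (Rps20), 10.4, 4.87, 9.77 and 6.63 (Rps4x), 8.66, 3.41, 5.49 and 5.84 (Rpl37), 7.08, 5.1, 11.6 and 10.3 (Rps14) and 5.31, 3.65, 7.14 and 6.99 (Rpl27). Day 2 was the lowest day in each of them. Rps20 and Rps14 have no annotated start, and their summits lay in the flank, 81 and 220 bp from an end of the gene. Sites farther out in the flank were those of Rpl3 (9.16, 7.01, 12.1 and 11.8), Rpl13 (6.2, 3.44, 6.71 and 10.1), Rpl4 (8.06, 3.3, 6.39 and 5.25) and Rpl26 (5.45, 3.29, 9.06 and 10.8). These too were lowest on day 2.

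Position at the start set these genes apart from genes of all lengths more than from short ones. CTCF summits lay within 500 bp of a start in 53.8%, 55%, 48.3% and 43.8% of peaks at members on days 0, 2, 4 and 6. For all protein-coding genes this was 19.4%, 11.8%, 12% and 11.8%, and for those under 5 kb 44.2%, 40.7%, 39% and 38.9%.

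CTCF sites found on day 0 only were mostly weak. These 15 sites had a median fold of 2.18 (1.63 to 11.5), and 14 of them were under 4. The exception was at Rpl7 (11.5). A CTCF peak on a later day and not on day 0 was at 2 members (background 2.27%), among them Rpl23a with a fold of 2.45 on day 4. Rpl19 shared with Rpl22 the highest CTCF fold at a member, 23.0 on day 6, in the flank of the gene, after 11.8 on day 0 and 16.0 on day 4 and with no peak on day 2.

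Of the paralogues picked as tissue-restricted, Rpl36al had MBD3 on all 4 days, as given above. The others carried little. Rpl10l, a testis copy of Rpl10, had CTCF folds of 3.67, 2.92 and 2.8 on days 0, 4 and 6 and no MBD3. Rpl3l, Rpl39l and Rps27l had no peak in any list. In all, 28 members had no peak in any list (background 38.8%). CTCF and no MBD3 was found at 16 (background 28.4%), MBD3 and no CTCF at 10 (background 1.52%), and both at 28 (background 31.2%). By subunit, MBD3 was found on any day (38 members, background 32.7%) at 22 of 51 Rpl genes and 16 of 31 Rps genes, and CTCF at 30 and 14.

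Other genes of protein synthesis were counted in the same way for MBD3 outside CTCF. The lists are small, were chosen with earlier results of these data known, and none was tested. MBD3 outside CTCF was at 2.83%, 2.44%, 4.04% and 2.26% of all protein-coding genes on days 0, 2, 4 and 6. Among ribosomal protein genes the shares were 7.32%, 14.6%, 9.76% and 14.6%. Folds named below are the highest of any MBD3 peak of a gene, whether or not it overlapped CTCF. For the 78 mitochondrial ribosomal protein genes, MBD3 outside CTCF was at 2, 0, 0 and 0 genes on days 0, 2, 4 and 6, while any MBD3 peak was at 20, 1, 14 and 17. For 47 initiation factor genes MBD3 outside CTCF was at 5, 9, 8 and 5 (10.6%, 19.1%, 17% and 10.6%). These shares were above those of ribosomal protein genes on days 0, 2 and 4. The highest fold on day 2 was at Eif3j2 (12.6). For 8 elongation factor genes it was at 2, 3, 5 and 3 (25%, 37.5%, 62.5% and 37.5%), above the shares of ribosomal protein genes on each day. Eef1a1, which brings transfer RNA to the ribosome, had a fold of 12.5 on day 2, and Eef2, the translocase, one of 9.48. For 22 ribosome biogenesis genes MBD3 outside CTCF was at 0, 3, 2 and 3 (0%, 13.6%, 9.09% and 13.6%). Ncl (nucleolin) had the highest MBD3 fold of that list on days 2, 4 and 6, at 19.5, 18.6 and 24.3. For 39 proteasome subunit genes, a complex outside translation, MBD3 outside CTCF was at 1, 2, 2 and 2 (2.56%, then 5.13% on each later day).

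Ribosomal protein pseudogenes had peaks in the MBD3 lists too. Their highest folds were above those of the genes on days 2, 4 and 6, but on day 0 the highest was 5.57 against 15.4 at a gene. Of 318 ribosomal protein pseudogenes counted over their own span with no flank, 30, 58, 48 and 55 carried MBD3 on days 0, 2, 4 and 6 (9.43%, 18.2%, 15.1% and 17.3%), against 2.11%, 3.47%, 3.3% and 3.92% of all 10508 annotated pseudogenes. None of these peaks overlapped CTCF, and CTCF was at 3, 0, 1 and 0 of them. The highest were Rplp2-ps1, with folds of 88 on day 2, 34.6 on day 4 and 88.6 on day 6, Rpl14-ps1 with 56.8, 39.2 and 72.1, and Rps23-ps1 with 64.4, 21.9 and 68.2. On day 0 the same copies had folds of 2.05, 1.75 and 1.61 over an expected background of 302, 391 and 198 fragments.

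The day 0 background was high over the pseudogenes as a set. Its median was 86.5 fragments on day 0 against 9.95, 7.06 and 4.19 on days 2, 4 and 6, while the median fragments at the summit were 162, 65, 62 and 45.5 and the median fold 2.12, 7.5, 7.57 and 9.83. A peak was found on all 4 days at 26 pseudogenes, on days 2, 4 and 6 at 44, and on any day at 63. Reads of near-identical copies cannot be told apart in such lists, and how reads with several matches were treated is not given in the sources used here, so values at genes with close copies are uncertain.

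Genes and their copies were paired by symbol. Only pseudogenes with the symbol of the gene followed by -ps were counted. Copies under other symbols were not, so a gene with no named pseudogene may still have close copies. A named pseudogene exists for 62 members, and on days 0, 2, 4 and 6 at least 1 of them had MBD3 for 22, 40, 34 and 37 members. Of those, 3, 4, 3 and 4 members also had MBD3 outside CTCF at the gene. Of the members without a named pseudogene, 2, 7, 5 and 7 had MBD3 outside CTCF, Rpl4, Rpl8, Rpl41 and Rps3 among them on days 2, 4 and 6. These groups differ in size, so the counts do not compare directly. Over all 82 members the shares were 7.32%, 14.6%, 9.76% and 14.6%.

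**Figure D5:**
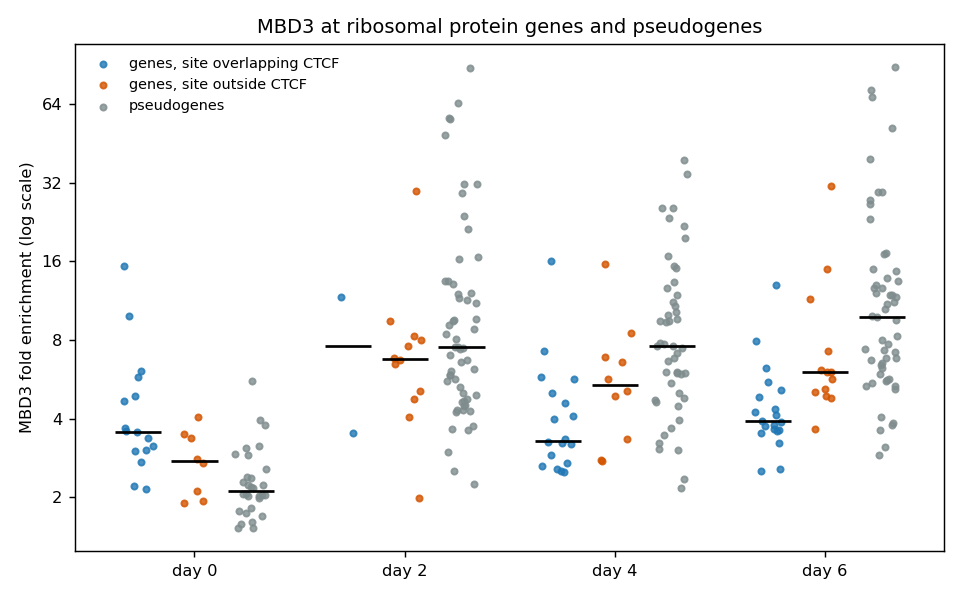
MBD3 fold (log scale) by day at ribosomal protein gene sites that overlapped CTCF on every day found (blue), at sites outside CTCF on a day (orange) and at pseudogenes (grey), each point 1 site or pseudogene and each bar the median. On day 0 the grey median is 2.12 and the orange 2.75; on day 6 they are 9.83 and 6.04.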

How the data were processed

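Values came from the 8 peak lists that the authors deposited, 1 for each antibody and day, with replicates 1 to 3 pooled, per the file names. MACS2 2.1.2, Bowtie2 2.3.4, bedtools 2.25.0, SAMtools 1.9, FastQC 0.11.7 and the build mm10 are named in the submitters' processing notes; their settings are not given in the sources used here. The authors give each peak a fold (a ratio of fragments to expected background at the summit), a score, which is not used here, and a summit offset. In the authors' deposited table the lowest −log10 q (beside a −log10 p) was 1.3 to 1.31 over the lists.

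Here, peaks were matched to gene spans of GRCm38.p6 in RefSeq with a 1 kb flank in Python 3.11.15 (numpy 2.4.6, pandas 2.3.3, scipy 1.17.1), with overlap of 1 bp or more. Fragments and expected background were recovered from the fold and −log10 p within 0.1% for 98.1% to 99.9% of peaks. These lists give no total depth and no replicate spread, so no value has an interval and no test was run. The counting was tested on simulated data. Members were named where they had MBD3 on any day, CTCF on all 4 days, CTCF only on later days or one of the 5 highest CTCF folds, or were tissue-restricted paralogues; a few are counted but not reported here by name. The members and lists were chosen with earlier results of these data known. Alternatives were stricter q, equal list lengths, other flanks, gene starts, overlap of 50% and no high background. Input samples have no list that was analysed here.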

Additional observations from a re-analysis of the deposited data

How the results depend on the processing

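The counts of members per list, and of those where MBD3 overlapped CTCF, were recomputed under other settings. Of the 80 pairs of a count and a setting, 53 stayed within 1.5 times the value given. The counts of MBD3 outside CTCF were not recomputed, so how they depend on these settings was not tested. No paired analysis was possible because each antibody and day has 1 pooled list whose columns carry no replicate numbers, and for the same reason no replicate could be left out. For CTCF within 1 kb of an annotated start (62 members) the counts were 22, 11, 15 and 16 on days 0, 2, 4 and 6, or 35.5%, 17.7%, 24.2% and 25.8%, above the 30.8%, 11.8%, 15.8% and 16.3% of all genes with a start and so opposite in order to the 1 kb result. Inside the gene only they were 15, 21 and 20 on days 2, 4 and 6, below the 36%, 42.3% and 43.4% of all genes. With 5 kb of flank they were 60, 40, 53 and 52 over the days, or 73.2%, 48.8%, 64.6% and 63.4%, against 66.3%, 49.4%, 56.7% and 58% of all genes, so the order also turned on days 0, 4 and 6. Without peaks over a high background (more than 10 times the list's level) CTCF was at 16 members on day 2 (19.5%, against 35.1% of all genes). MBD3 was then at 13 on day 0 (15.9%, against 19.7%), below the share of all genes. For MBD3 the start gave 7, 4, 10 and 11 over the days (11.3%, 6.45%, 16.1% and 17.7% of 62 members, against 8.66%, 1.86%, 8.77% and 6.06%). The gene alone gave 13 on day 0 (15.9%, against 19.4%), again below the share of all genes. A −log10 q of 10 or more gave 9 on day 0 (11%, against 9.32%) and 15 on day 4 (18.3%, against 10.1%). With every list cut to one length MBD3 was at 5, 12 and 13 members on days 0, 4 and 6 (6.1%, 14.6% and 15.9%, against 5.4%, 5.52% and 4.72%). Members where MBD3 overlapped CTCF numbered 6, 1 and 8 on days 0, 2 and 4 at a −log10 q of 10 or more (7.32%, 1.22% and 9.76%, against 8.8%, 1.42% and 8.95%). At one length they numbered 4, 7 and 8 on days 0, 4 and 6 (4.88%, 8.54% and 9.76%, against 5.04%, 4.69% and 4.07%). Leaving out symbols that end in l, an alternative chosen after seeing the data, moved no count by over 1.5 times. Fewer peaks and fewer genes with a start lower these counts by construction; the cause of other moves was not tested. These lists give no total depth, so what depth limits was not tested.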
